A study of Arabidopsis thaliana with 24 samples.

Results

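SPX1 and SIZ1 encode regulators of PHR1, the MYB-CC transcription factor that binds the promoters of phosphate (Pi) starvation genes. They were followed through their probe sets on the Affymetrix ATH1 array, 1 for SPX1 (AT5G20150) and 2 for SIZ1 (AT5G60410), which are called SIZ1 probe set A, the dimmer one, and probe set B, the brighter one. These 3 probe sets of 2 genes were taken by gene identity from 22746 probe sets that are not array controls. Of those probe sets 8110 had no matched gene, and 13983 genes were matched to 1 or more of the others. The series holds 24 arrays in 8 groups of 3, from shoots and roots of Arabidopsis thaliana seedlings grown for 7 days on solid Johnson medium with 2% sucrose. Wild type (WT) shoots and roots were grown either with 2 mM Pi (+Pi) or without Pi (−Pi, 0 mM). Shoots and roots labelled phr1 and labelled phr1 phl1 were grown at −Pi, and no mutant array at +Pi is among these samples. According to the study, all plants were in the Columbia Col-0 background, and phl1 carries inserted T-DNA in the coding region of PHL1, a close relative of PHR1. All values are signals on the log2 scale after RMA, a method that removes background, puts arrays on a common scale and combines the probes of each probe set.

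SPX proteins carry a domain that binds inositol pyrophosphates, small molecules whose level follows the Pi supply of the cell. When Pi is plentiful, SPX1 with this ligand bound holds PHR1 away from DNA. The SPX1 gene is itself a target of PHR1, so that the inhibitor is made in quantity when PHR1 is active, and its transcript is widely used as a marker of Pi starvation. SIZ1 is an E3 ligase that attaches the small protein SUMO to other proteins. It sumoylates PHR1 in vitro, and siz1 mutants show altered responses to low Pi, cold, drought and salicylic acid. Its action on PHR1 is on the protein, so a transcript array reads only how much SIZ1 message there is and not how much sumoylation takes place.

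The signal of the PHL1 probe set bears on the mutant labels. It lay between 7.06 and 9.31 in the 6 arrays labelled phr1 phl1 and between 4.34 and 6.06 in the other 18, that is, higher where an insertion is labelled. The position of its probes with respect to the inserted DNA is unknown, so the signal is no check of the label, and phr1 phl1 below stands for the label. No probe set was matched to PHR1. Array medians lay between 5.12 and 5.40, and each array correlated on average at 0.968 to 0.994 with the others of its group. The lowest of these correlations were those of replicate 2 of phr1 shoots (0.968) and of WT shoots at −Pi (0.969). The latter array also had the lowest median. Both arrays gave the lowest signal of their group for SPX1 (9.36 and 10.58) and for SIZ1 probe set A (4.53 and 4.44). Organ markers that could be matched followed the organ labels. The summed signal of 3 of 10 leaf markers (RCA, PSAE-1 and PSAN) was 13.7 to 14.1 in shoots and 7.31 to 9.93 in roots, and that of 3 of 9 root markers (EXPA7, EXPA18 and WER) was 8.23 to 9.90 in roots and 5.25 to 6.28 in shoots.

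SPX1 had a higher signal without Pi than with it in both organs. In WT shoots at +Pi its log2 signal was 6.78, 7.18 and 6.40, and at −Pi it was 11.49, 10.58 and 11.61. In WT roots it was 5.81, 5.87 and 5.43 at +Pi and 11.72, 11.69 and 11.72 at −Pi. Every −Pi array lay above every +Pi array in both organs, and the 3 root arrays at −Pi differed from each other less than those of any other group (11.7 ± 0.019, SD, n = 3).

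SPX1 rose by a log2 difference of 4.44 at −Pi in WT shoots (standard error 0.296, 95% interval 3.82 to 5.06, 21.7-fold, adjusted p = 5.69e-10 from limma). In WT roots it rose by 6.002 (95% interval 5.38 to 6.62, 64.1-fold, adjusted p = 1.79e-11). Among all probe sets tested 15.9% passed the same test as higher at −Pi in shoots and 6.55% in roots, where passing means an adjusted p under 0.05. By the size of the rise SPX1 stood 81st from the top in shoots and 9th in roots. The response in roots exceeded that in shoots by 1.56 on the log2 scale (adjusted p = 0.0121, limma, for the interaction of Pi and organ, which 18.5% of probe sets passed).

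**Figure D1:**
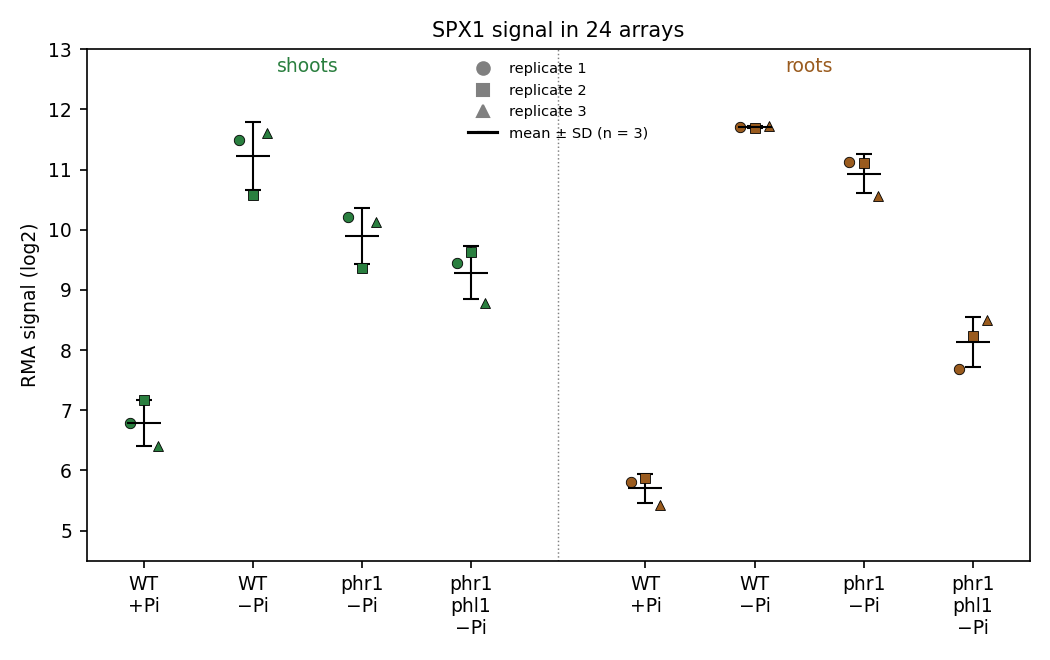
Log2 RMA signal of SPX1 (y axis) in each of the 24 arrays by group (x axis), with shoots on the left, roots on the right, marker shapes for the replicate number and black bars for the mean ± SD (n = 3). At −Pi the WT arrays lie between 10.58 and 11.72, all above the WT +Pi arrays, and the root arrays labelled phr1 phl1 fall to between 7.68 and 8.50.

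In shoots labelled phr1 the SPX1 signal at −Pi was 10.21, 9.36 and 10.13, below all 3 WT arrays at −Pi. In roots labelled phr1 it was 11.13, 11.11 and 10.56, also below every WT array at −Pi. The difference in shoots passed the test, at −1.33 (95% interval −1.95 to −0.71, 2.51-fold lower, adjusted p = 1.50e-03, limma), where 14.9% of probe sets passed as lower. Equally numbered arrays of these shoot groups deviated alike over all probe sets (r = 0.499, 0.654 and 0.433), and this fit did not pair them. The difference in roots was −0.77 (95% interval −1.39 to −0.15) and did not pass with all arrays in 1 fit (adjusted p = 0.174 from limma, unadjusted p = 0.0173, with 2.41% of probe sets passing as lower). It passed with roots fitted on their own (adjusted p = 0.0430), with only those 2 groups fitted (adjusted p = 0.0224) and with array weights, where the difference was −0.64 (adjusted p = 0.00552). The call for SPX1 in phr1 roots thus rests on how the fit was set up, while its direction was the same in all of them. The effect of phr1 on SPX1 differed between roots and shoots by 0.55, a difference that did not pass (adjusted p = 0.412, with 19.7% of probe sets passing) except with array weights, where it was 0.71 (adjusted p = 0.0379).

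In shoots labelled phr1 phl1 the SPX1 signal was 9.45, 9.62 and 8.79, again below every WT array at −Pi, and overlapping the arrays labelled phr1. In roots labelled phr1 phl1 it was 7.68, 8.23 and 8.50, apart from both the WT and the phr1 roots at −Pi. The log2 difference of SPX1 from WT was −1.94 in shoots (3.84-fold lower, adjusted p = 2.50e-05, limma) and −3.57 in roots (11.9-fold lower, adjusted p = 3.81e-08), in comparisons where 16.4% and 6.01% of probe sets passed as lower. The effect in roots was the larger of the pair, by −1.63 on the log2 scale (adjusted p = 6.89e-03 for the interaction, which 23.8% of probe sets passed). In those roots SPX1 had the 25th largest fall of all probe sets.

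Set against phr1 alone, SPX1 in phr1 phl1 was lower in roots, by a log2 difference of −2.80 (95% interval −3.42 to −2.18, 6.96-fold, adjusted p = 4.30e-06, limma), the 14th largest fall of all probe sets. In shoots the difference was −0.61 and did not pass (95% interval −1.23 to 0.01, adjusted p = 0.479). Of all probe sets 4.10% passed this comparison in roots and 1.65% in shoots, in either direction. The organ marker sums of phr1 phl1 roots differed from those of the other root groups at −Pi. The summed log2 signal of the leaf markers was 9.14 to 9.93 in phr1 phl1 roots against 7.81 to 8.07 in phr1 roots and 7.31 to 7.85 in WT roots at −Pi, and all 3 markers were higher. That of the root markers was 8.74 to 9.07 in phr1 phl1 roots. In phr1 roots it was 9.62 to 9.90, and in WT roots at −Pi it was 9.17 to 9.39. EXPA7 was lower than in phr1 (−1.06, adjusted p = 0.0326, limma), and EXPA18 and WER did not pass. Against WT at −Pi, 0 of the 3 root markers passed. WT roots at +Pi, the group with the lowest SPX1, had sums of 8.23 to 9.11 for root markers and 7.46 to 8.67 for leaf markers. Root markers also changed with the conditions compared. In WT roots 1 of the 3 passed as higher at −Pi than at +Pi. In phr1 roots at −Pi 2 of the 3 passed as higher than in WT roots at +Pi, and in phr1 phl1 roots 0 did. Their sums are thus no measure of organ content alone. The part of organ composition in the SPX1 result was not tested. In bulk RNA, a lower signal from fewer cells that express a gene and from less RNA per cell cannot be told apart.

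SPX1 stayed above its +Pi level in both mutants. Shoots labelled phr1 at −Pi exceeded WT shoots at +Pi by 3.11 (8.65-fold, adjusted p = 2.77e-07, limma), and those labelled phr1 phl1 by 2.50 (5.66-fold, adjusted p = 3.96e-06). In roots the excess over WT at +Pi was 5.23 for phr1 (37.5-fold, adjusted p = 2.70e-10) and 2.43 for phr1 phl1 (5.39-fold, adjusted p = 1.10e-05). These comparisons were passed in either direction by 25.3%, 24.6%, 13.5% and 14.7% of probe sets, in the order given. Expressed against the WT response on the log2 scale, SPX1 in phr1 kept 70.1% of the rise in shoots and 87.1% in roots, and in phr1 phl1 it kept 56.3% in shoots and 40.5% in roots. On the linear scale its −Pi signal in phr1 was 39.8% of WT in shoots and 58.5% in roots, and in phr1 phl1 26.1% in shoots and 8.41% in roots. All of these figures share the WT arrays, and since the mutants have no +Pi arrays, the rise is counted from WT at +Pi and not from the mutants' own level with Pi.

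The organ in which SPX1 was higher changed with condition and genotype. At +Pi the WT roots were below the shoots, by a log2 difference of −1.08 (adjusted p = 4.88e-03, limma). At −Pi the WT roots were all above the WT shoots, by 0.48, which did not pass (adjusted p = 0.203) and was 0.156 without WT shoot −Pi replicate 2. In phr1 the roots were above the shoots by 1.03 (adjusted p = 6.49e-03), and in phr1 phl1 they were below them, by a difference of −1.15 (adjusted p = 2.99e-03). Between 45.7% and 49.3% of all probe sets passed an organ comparison, so a pass here is common (47.1% in WT at +Pi, 49.3% in WT at −Pi, 48.5% in phr1 and 45.7% in phr1 phl1).

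From high to low, the group means of SPX1 ran from WT roots at −Pi (11.7), WT shoots at −Pi (11.2), phr1 roots (10.9), phr1 shoots (9.90), phr1 phl1 shoots (9.29) and phr1 phl1 roots (8.13) to WT shoots (6.79) and WT roots (5.70) at +Pi. WT shoots at −Pi overlapped phr1 roots, and phr1 shoots overlapped phr1 phl1 shoots. The other neighbours in that order did not overlap in any array.

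SIZ1 was read by 2 probe sets of unlike brightness, and neither passed in the comparison of Pi supply. In WT shoots probe set A gave 5.304, 4.81 and 5.03 at +Pi and 5.24, 4.44 and 5.01 at −Pi. In WT roots it gave 5.39, 5.04 and 4.84 at +Pi and 4.92, 4.75 and 4.34 at −Pi. In both organs the ranges with and without Pi overlapped. The brighter probe set B gave 7.80, 7.31 and 7.59 in WT shoots at +Pi and 7.62, 7.58 and 7.46 at −Pi. In WT roots it gave 7.48, 7.78 and 7.52 at +Pi and 7.41, 7.38 and 7.24 at −Pi. Its shoot ranges overlapped, and its 3 root arrays at −Pi all lay just below those at +Pi.

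**Figure D2:**
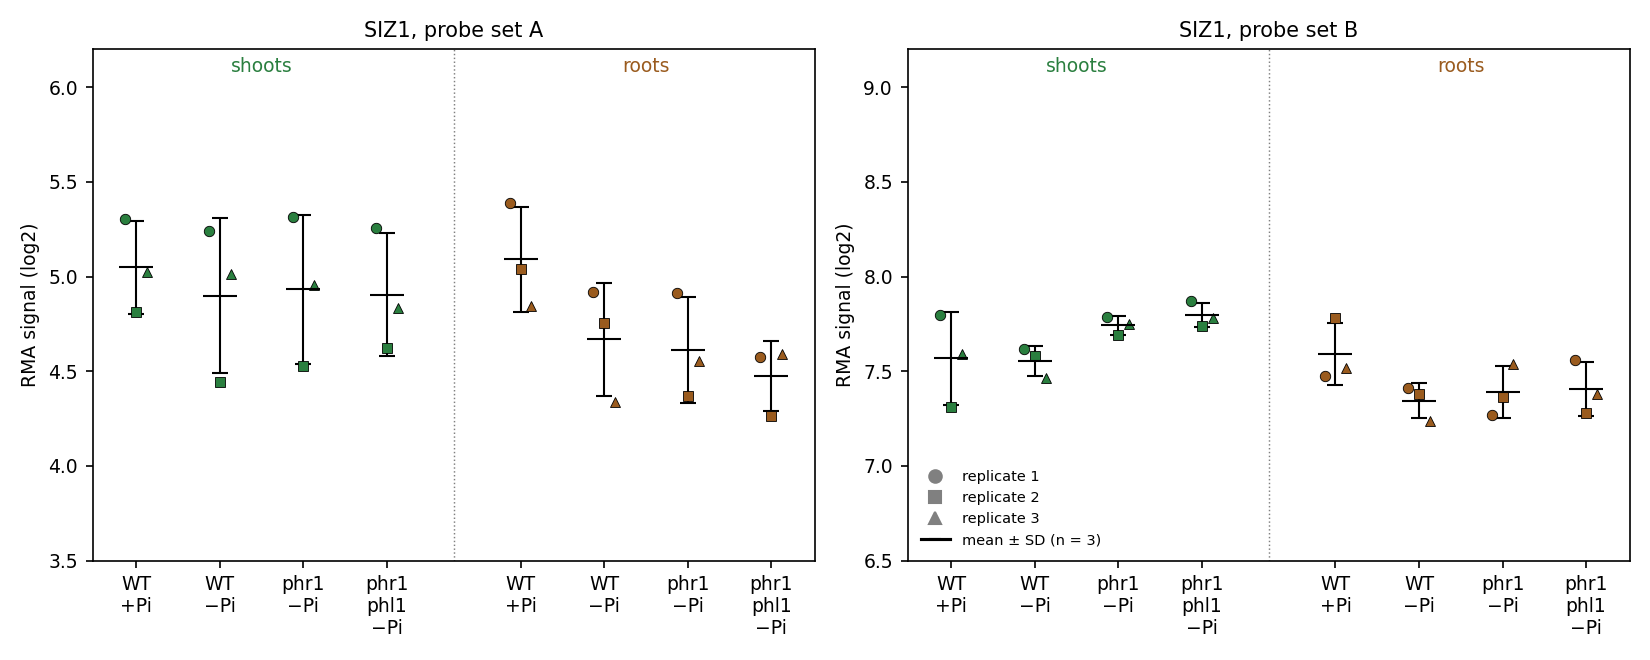
Log2 RMA signal (y axis) of the SIZ1 probe sets A (left) and B (right) in each of the 24 arrays by group (x axis), drawn as in the plot of SPX1 but over a span of 2.7 log2 units in each panel. Group means lie between 4.47 and 5.09 for probe set A and between 7.34 and 7.80 for probe set B.

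The log2 difference of probe set A between −Pi and +Pi was −0.15 in WT shoots (95% interval −0.65 to 0.35, adjusted p = 0.691, limma) and −0.42 in WT roots (−0.92 to 0.08, adjusted p = 0.304). For probe set B it was −0.02 in shoots (−0.26 to 0.23, adjusted p = 0.942) and −0.25 in roots (−0.49 to −0.00492, adjusted p = 0.199, unadjusted p = 0.0460). Shares of 21.1% of all probe sets in shoots and 5.52% in roots passed as lower at −Pi, and neither SIZ1 probe set was among them. The intervals allow a change in SIZ1 message of less than 2-fold, and none of these 4 reaches a 2-fold change.

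In the mutants the dimmer probe set A gave 5.31, 4.53 and 4.95 in phr1 shoots and 5.26, 4.62 and 4.84 in phr1 phl1 shoots. In roots it gave 4.91, 4.37 and 4.55 in phr1 and 4.57, 4.26 and 4.59 in phr1 phl1. These overlapped the WT arrays at −Pi of the same organ. Probe set B gave 7.79, 7.69 and 7.75 in phr1 shoots and 7.87, 7.74 and 7.78 in phr1 phl1 shoots, both entirely above the WT shoots at −Pi. In roots it gave 7.27, 7.37 and 7.54 in phr1 and 7.56, 7.28 and 7.38 in phr1 phl1, overlapping WT.

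The differences behind this were small. Against WT at −Pi, probe set B was at 0.19 in phr1 shoots (adjusted p = 0.255, limma) and at 0.25 in phr1 phl1 shoots (adjusted p = 0.112, unadjusted p = 0.0480), neither past the test. The same probe set differed by 0.05 and 0.06 in phr1 and phr1 phl1 roots, and probe set A by 0.03 and 0.01 in shoots and −0.06 and −0.19 in roots. Of probe sets in all, 16.9% in phr1 shoots, 2.98% in phr1 roots, 20.6% in phr1 phl1 shoots and 7.14% in phr1 phl1 roots passed as higher than WT. Over the 8 comparisons of Pi, of each genotype with WT and of phr1 phl1 with phr1, 0 of the 16 tests of a SIZ1 probe set passed in limma, and 2 had an unadjusted p under 0.05. The 95% intervals of these 16 tests lay between −0.92 and 0.53, whereas the SPX1 probe set passed in 6 of the same 8 comparisons.

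**Figure D3:**
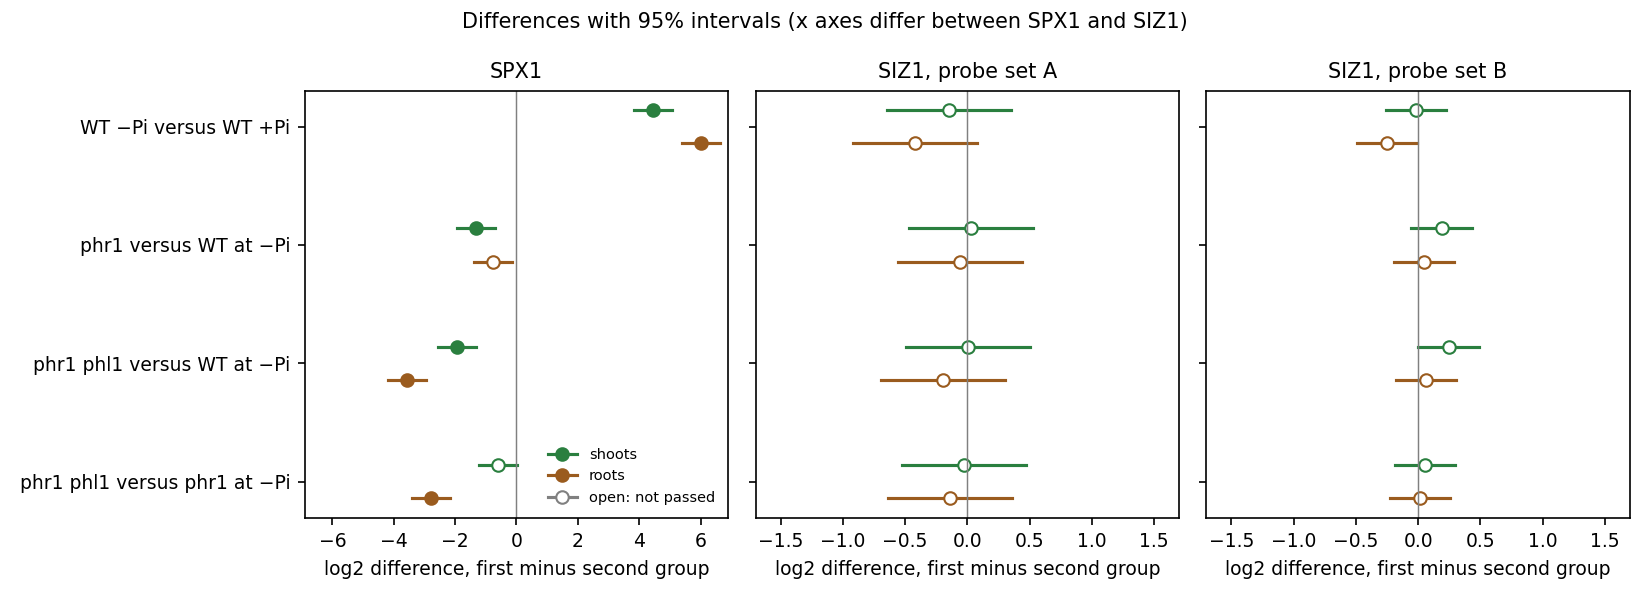
Log2 difference between groups with its 95% interval (x axis, limma) for SPX1 and both SIZ1 probe sets in 4 comparisons (y axis), in shoots (green) and roots (brown). Filled points passed at an adjusted p under 0.05 and open points did not, and the x axis of the SPX1 panel is wider than those of SIZ1. For SPX1 6 of 8 points are filled, and for SIZ1 0 of 16.

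The passes of SIZ1 were between organs. The signal of probe set B was lower in roots than in shoots, by a log2 difference of −0.35 in phr1 (standard error 0.116, adjusted p = 0.0170, limma) and −0.39 in phr1 phl1 (adjusted p = 8.72e-03), with every root array below every shoot array. In WT at −Pi the roots were also all below the shoots, at a difference of −0.21 that did not pass (adjusted p = 0.153), and in WT at +Pi the organs overlapped (0.02, adjusted p = 0.889). Without any single one of phr1 shoot replicate 1, phr1 root replicate 1 or phr1 root replicate 2, the organ difference in phr1 no longer passed (−0.33 with adjusted p = 0.0530, −0.29 with 0.0829 and −0.34 with 0.0502). Without phr1 phl1 root replicate 2, that in phr1 phl1 was −0.33 (adjusted p = 0.0501). Since 48.5% and 45.7% of all probe sets passed these comparisons, such a pass was common. The dimmer probe set pointed the same way, at −0.32 in phr1 and −0.43 in phr1 phl1, and did not pass (adjusted p = 0.288 and 0.156).

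The largest difference of any kind in SIZ1 was that of probe set A between phr1 phl1 roots at −Pi and WT roots at +Pi, −0.62 (95% interval −1.11 to −0.12), with all arrays apart. It did not pass with all arrays in 1 fit (adjusted p = 0.0944, limma) and passed with roots fitted alone (adjusted p = 0.0395) and with only those groups fitted (adjusted p = 0.0488). In the order of group means every neighbouring pair overlapped, for both probe sets. The highest mean of probe set A was in WT roots at +Pi (5.09) and the lowest in phr1 phl1 roots (4.47). For probe set B they were in phr1 phl1 shoots (7.80) and WT roots at −Pi (7.34), so the probe sets put the 8 groups in different orders.

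The probe sets of SIZ1 were only loosely alike. Their signals correlated with r = 0.503 over the 24 arrays, and their deviations from the group means with r = 0.339, over arrays that share plants, RNA and hybridisation. With SPX1, r was −0.254 for probe set A and −0.239 for probe set B over the same 24 arrays, which share groups and are not independent. These are given as descriptions.

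The spread of probe set A within groups went with the replicate number in the sample titles. In shoots, the array numbered 1 was above its group mean in 4 of 4 groups, by 0.256 to 0.382 on the log2 scale, and the array numbered 2 was below it in 4 of 4, by deviations of −0.456 to −0.233. In roots the array numbered 1 was again above in 4 of 4 groups, by 0.098 to 0.303, while numbers 2 and 3 went both ways. Of the squared within-group deviations of probe set A in shoots, 94.0% followed the number, against a median of 24.2% over all probe sets and 49.5% for probe set B. In roots the share was 60.8%, against a median of 19.0% and only 1.48% for probe set B. SPX1 was unlike it, at 11.5% in shoots and 9.69% in roots. The study states that replicates were obtained over an interval of time, and the labels do not say what a number stands for. This pattern was singled out after the values were seen, and its part in the SIZ1 comparisons was not tested beyond the fit with the replicate number as a block, given with the other alternatives.

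**Figure D4:**
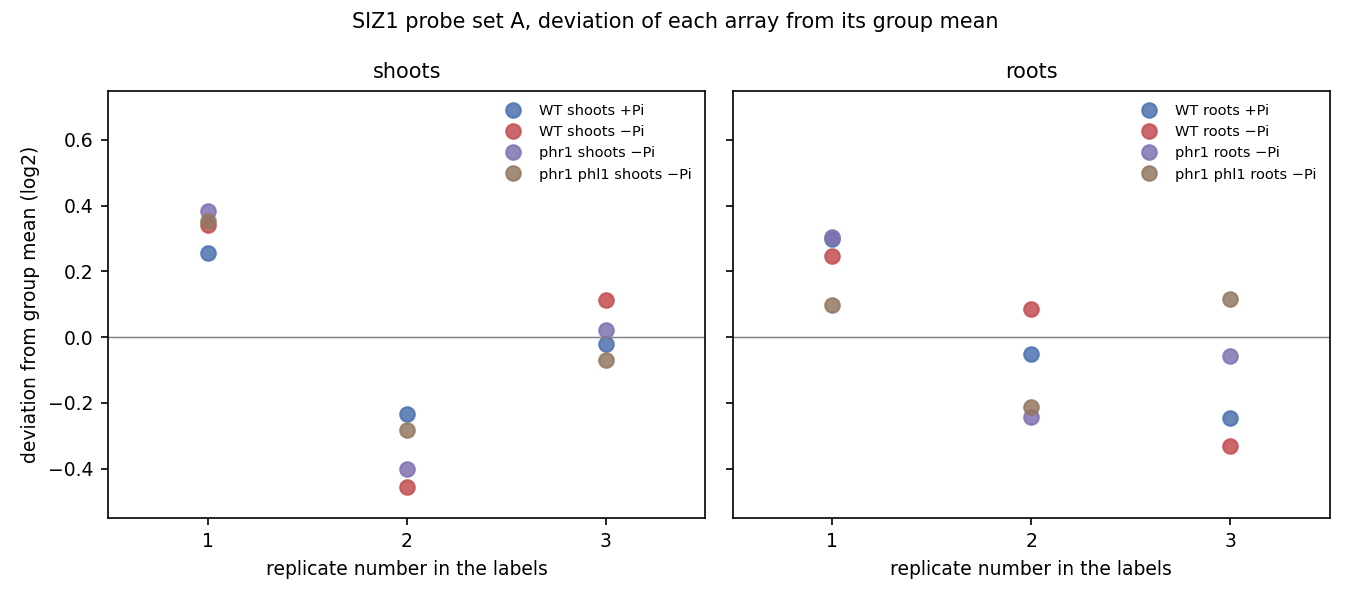
Deviation of each array from its group mean (y axis, log2) for SIZ1 probe set A against the replicate number in the sample titles (x axis), in shoots (left) and roots (right), with 1 colour per group. In shoots all 4 points at number 1 lie between 0.256 and 0.382 and all 4 at number 2 between −0.456 and −0.233.

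Probe sets with the pattern most like SPX1 were taken by Pearson's r over the 24 arrays, which share their groups. The 10 nearest had r from 0.927 to 0.974, and 2 of them were matched to 1 gene. AT5G20790 (r = 0.972) differed between −Pi and +Pi by 7.00 in WT shoots and 7.02 in WT roots on the log2 scale, and AT1G08310 (r = 0.951) by 5.78 and 5.11. Both had lower means than WT at −Pi in phr1 and lower still in phr1 phl1, an order that their choice by likeness to SPX1 over these same arrays largely fixed. For SIZ1 probe set A the 5 nearest had r of at least 0.767 and named AT4G02480, AT2G43160 and AT1G54920. For probe set B the highest r was 0.846, and the named ones were SPY (AT3G11540, r = 0.838), an O-glycosyltransferase that restrains gibberellin signalling, and AT4G26400 (r = 0.828). No gene was near to both SIZ1 probe sets among these.

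Few genes of the SPX and inositol pyrophosphate system could be matched to a probe set. Of 4 SPX family genes SPX1 alone was matched, and of 6 other genes for SPX domain proteins only PHT5;1 (AT1G63010), a transporter that moves Pi into the vacuole. PHT5;1 rose by 0.97 at −Pi in WT shoots (adjusted p = 4.74e-06, limma) and by 0.62 in WT roots (adjusted p = 2.51e-03), beside 4.44 and 6.002 for SPX1. At −Pi it was lower than WT in phr1 and phr1 phl1, by differences of −1.68 and −1.72 in shoots and −0.66 and −0.68 in roots, all of which passed. In phr1 shoots at −Pi its signal of 7.74, 7.996 and 7.51 lay below that of WT shoots at +Pi (8.33, 8.69 and 8.34), whereas SPX1 in the same arrays stayed above. Between phr1 phl1 and phr1 PHT5;1 differed by −0.02 in roots (adjusted p = 0.995), where SPX1 differed by −2.80.

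Of 9 genes listed for inositol pyrophosphate synthesis, 2 were matched. AT5G15070 encodes a kinase of the VIH family, which makes the inositol pyrophosphates that SPX domains bind. Its signal was 4.02, 3.85 and 3.96 in WT shoots at +Pi and 6.24, 5.63 and 6.66 at −Pi, a rise of 2.24 (adjusted p = 1.63e-08, limma). In WT roots it was 4.89, 4.52 and 4.75 at +Pi and 4.45, 4.71 and 4.64 at −Pi, and the groups overlapped (−0.12, adjusted p = 0.779). The responses of the 2 organs differed by −2.35 (adjusted p = 4.82e-06), the opposite order to that of SPX1. In shoots at −Pi AT5G15070 was lower than in WT, by a log2 difference of −2.00 in phr1 (adjusted p = 8.92e-08) and −2.35 in phr1 phl1 (adjusted p = 7.56e-09). Its signal in phr1 shoots was 4.22, 4.04 and 4.29, just above the WT +Pi arrays. Against WT shoots at +Pi it did not pass in phr1 (0.24, adjusted p = 0.429, limma) or in phr1 phl1 (−0.11, adjusted p = 0.754). ITPK1 (AT5G16760), an inositol phosphate kinase, did not pass in the Pi comparison of either organ or against WT at −Pi in either mutant, with differences of −0.27 to 0.01. Set against WT shoots at +Pi, it was lower in phr1 shoots (−0.54, adjusted p = 0.0179, limma) and in phr1 phl1 shoots (−0.53, adjusted p = 0.0201). Shares of 25.3% and 24.6% of all probe sets passed these in either direction, and ITPK1 did not pass in roots.

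MGD2, a galactolipid synthase gene used here as a marker of Pi starvation, was the only matched one of 12 listed markers. It rose by 5.40 in WT shoots and 4.61 in WT roots, and its difference from WT at −Pi was −3.28 in phr1 phl1 shoots and −4.30 in phr1 phl1 roots. In phr1 it was −2.71 in shoots and −2.44 in roots, both past the test (adjusted p = 4.78e-10 and 1.70e-08, limma), beside −1.33 and −0.77 for SPX1. MGD2 in phr1 phl1 roots (4.33, 4.21 and 4.37) was near its WT level at +Pi (3.94, 3.77 and 4.26), which SPX1 was not. In other respects MGD2 was like SPX1. Between phr1 phl1 and phr1 it differed by −1.86 in roots, which passed, and by −0.57 in shoots, which did not. Its phr1 phl1 effect was likewise larger in roots than in shoots, by −1.02, which passed. In phr1 phl1 shoots it also stayed above WT shoots at +Pi, by 2.12, which passed.

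**Figure D5:**
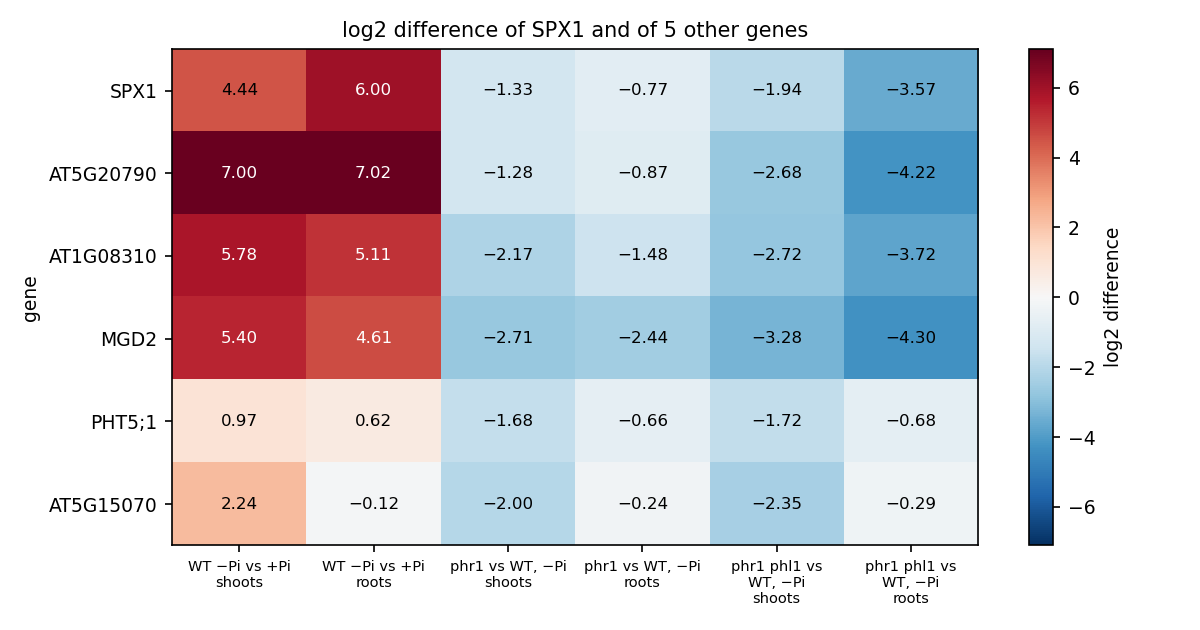
Log2 difference (colour and printed value) of SPX1, the 2 named genes most like it, MGD2, PHT5;1 and AT5G15070 (y axis) in 6 comparisons (x axis), which are WT at −Pi against +Pi, and phr1 and phr1 phl1 against WT at −Pi, each in shoots and roots. AT5G15070 stands at 2.24 in WT shoots and −0.12 in WT roots, where SPX1 stands at 4.44 and 6.002.

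Among the genes of the SUMO pathway around SIZ1, 1 matched gene passed in shoots and 0 in roots. Of 19 other genes listed for SUMO, its activation and conjugation, its ligases and its proteases, 6 were matched. Among them, SAE1A, a subunit of the enzyme that activates SUMO, fell by 0.42 at −Pi in WT shoots (adjusted p = 0.0122, limma) and was higher than WT at −Pi in shoots of phr1 by 0.35 (adjusted p = 0.0371) and of phr1 phl1 by 0.36 (adjusted p = 0.0299). The other 5, the SUMO proteases ESD4, SPF1, SPF2 and ULP1B and the SUMO-like gene AT5G48710, passed in none of the comparisons of Pi or of a mutant with WT, in either organ. Group means were only 2.70 to 3.05 for ULP1B, 3.04 to 3.23 for SPF2 and 3.20 to 3.25 for AT5G48710. Array medians were 5.12 to 5.40, so a fall of these dim probe sets could hardly be read. In WT shoots 2 of the 6 had an unadjusted p under 0.05 for Pi. The 1 of 6 in each shoot comparison stands beside 21.1% of all probe sets lower for Pi and 16.9% and 20.6% higher in phr1 and phr1 phl1. In roots 0 of the 6 passed in these 3 comparisons, also at an unadjusted p under 0.05. The median difference of the 6 between −Pi and +Pi was −0.11 in shoots and −0.11 in roots, beside −0.04 and −0.01 over all probe sets.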

How the data were processed

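Total RNA of shoots and roots was labelled with biotin and hybridised to ATH1 arrays, 3 per group, described by the labels as separate biological replicates. Groups and replicate numbers were taken from the sample titles. The deposited log2 signals were made by the authors with RMA, and their fold changes and p-values, which are the study's own comparisons, were not used. A genome build is not given in the sources used here, so no position is printed, and depth does not apply to arrays, whose number limits the precision.

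After removal of 64 control probe sets, a single model of 8 group means was fitted to the 24 arrays with limma 3.58.1 in R 4.3.3 (16 residual degrees of freedom). Each p is limma's, two-sided, adjusted by Benjamini-Hochberg over the 22746 probe sets of that comparison, and 0.05 was the threshold in 19 comparisons. An exact permutation of 3 arrays against 3 cannot go below p = 0.1. The fit was tried on simulated data with independent noise in each array, where it recovered 74 to 91 of 100 changes of 1 log2 unit. Deviations that arrays share were not simulated.

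Genes were named through the platform annotation (13436 probe sets) or, failing that, the locus column of a supplementary table of the study (697, SPX1 among them). A further 503 probe sets matched several genes and 8110 none, so most listed genes could not be read. Named genes are the 3 member probe sets, the matched ones among the 10 probe sets nearest to SPX1 and the 5 nearest to each SIZ1 probe set by r, and up to 6 matched genes per list by role. Members, lists and tests were chosen with earlier results of these data known.

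Other settings tried were a block for the replicate number, a fit per organ, a fit of the compared groups alone, removal of the dimmest 25% of probe sets, arrays centred on their median, quantile normalization within organs, a trended and robust variance, array weights, the mean of the SIZ1 probe sets, each replicate left out in turn and, added after the values were seen, the fit without the 6 arrays labelled phr1 phl1. Whether equal replicate numbers pair arrays was read from the correlation of their deviations from the group means. All 3 pairs were above 0.1 for phr1 and WT shoots at −Pi (0.499, 0.654 and 0.433) and for WT roots and shoots at −Pi (0.272, 0.371 and 0.141), and in no other pair of groups compared. The main fit of group means did not pair arrays by number in these comparisons either.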

Additional observations from a re-analysis of the deposited data

Results flagged for a closer look

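The Pi response of SPX1 in WT was larger in roots than in shoots by 1.56 on the log2 scale (adjusted p = 0.0121, limma interaction term), with all 3 arrays of each −Pi group above all 3 of the matching +Pi group. The difference of SPX1 between phr1 phl1 and WT at −Pi was larger in roots than in shoots, by −1.63 (adjusted p = 6.89e-03, limma interaction term), with all arrays of both mutant groups below WT. The summed leaf markers were also higher in phr1 phl1 roots than in WT roots at −Pi, and all 3 of them passed. The summed root markers were lower there, but 0 of the 3 passed. The part of these markers in the SPX1 result was not tested.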

How the results depend on the processing

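Apart from left-out replicates, 145 of 149 values of SPX1 under another setting kept direction and side of the threshold, and 4 passed where they had not. With organs fitted separately, only the groups compared or array weights, phr1 against WT roots was −0.77, −0.77 and −0.64 and passed, and with array weights the phr1 effect in roots minus shoots was 0.71 and passed. No left-out replicate changed a call or the direction of SPX1, but 3 differences that did not pass moved by over 1.5 times, roots against shoots of WT at −Pi (0.156 to 0.67), the phr1 effect in roots minus shoots (0.287 to 0.878) and phr1 phl1 against phr1 shoots (−0.88 to −0.363). The replicate block changed no call of SPX1.

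Of SIZ1, again apart from left-out replicates, 308 of 336 kept both, 18 turned in direction, 9 passed anew and 1 was lost, and every value that turned was uncalled before and after. Under the replicate block probe set A passed in phr1 and phr1 phl1 roots at −Pi against WT roots at +Pi (−0.48 and −0.62, adjusted p = 0.0366 and 0.00730, limma) and in roots against shoots of phr1 phl1 (−0.43, adjusted p = 0.0214), and the block changed no other call of SIZ1. Outside the comparisons named in the methods account, not all 3 pairs of equal numbers correlated above 0.1 over all probe sets. The spread of probe set A itself followed the number, by 94.0% in shoots and 60.8% in roots. The value of −0.62 in phr1 phl1 roots also passed with organs fitted separately and with only the groups compared. With array weights probe set B passed in phr1 roots against WT at +Pi (−0.25), and both SIZ1 probe sets passed in roots against shoots of WT at −Pi (−0.57 and −0.26).

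With array weights probe set A turned to 0.0316 for Pi in WT shoots, −0.0135 and 0.167 for phr1 against WT in shoots and roots, −0.104 for phr1 phl1 against WT in shoots, 0.018 for phr1 shoots against WT at +Pi, and 0.181 and 0.0124 for the phr1 and phr1 phl1 effects in roots minus shoots, and probe set B to −0.0595 for roots against shoots of WT at +Pi. With arrays centred on their median probe set B turned to 0.0421 for Pi in WT shoots, −0.00785 for phr1 phl1 against phr1 roots and −0.054 for roots against shoots of WT at +Pi, where probe set A turned to −0.0358. The mean of the SIZ1 probe sets gave −0.00405 for phr1 and −0.0656 for phr1 phl1 against WT roots, 0.0139 and −0.0615 for phr1 phl1 against phr1 in shoots and roots, 0.0291 and 0.0431 for phr1 and phr1 phl1 shoots against WT at +Pi, and, for roots against shoots, −0.33 in phr1, which lost the pass of probe set B, and −0.41 in phr1 phl1, which passed. The cause of these changes was not tested.

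With each replicate left out in turn, these are the lowest and highest values of results that changed. For probe set A they were −0.32 and 0.0786 for Pi in WT shoots, −0.194 and 0.235 (shoots) and −0.223 and 0.0672 (roots) for phr1 against WT, −0.222 and 0.176 for phr1 phl1 against WT shoots, −0.229 and 0.163 (shoots) and −0.26 and 0.0142 (roots) for phr1 phl1 against phr1, −0.307 and 0.0855 for phr1 shoots against WT at +Pi, −0.106 and 0.17 for roots against shoots of WT at +Pi, and −0.291 and 0.138 for the phr1 effect and −0.37 and 0.0285 for the phr1 phl1 effect in roots minus shoots. For probe set B they were −0.143 and 0.10019 for Pi in WT shoots, −0.0257 and 0.11 for phr1 and −0.0137 and 0.126 for phr1 phl1 against WT roots, −0.0624 and 0.0885 for phr1 phl1 against phr1 roots, −0.104 and 0.139 for roots against shoots of WT at +Pi, −0.424 and −0.289 in phr1 and −0.468 and −0.328 in phr1 phl1 for the same contrast of organs, and 0.102 and 0.345 for phr1 phl1 shoots against WT at +Pi, the last of which passed without WT shoot +Pi replicate 1.

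The number of probe sets that passed stayed within 1.5 times of the main fit in all 61 values counted, over 19 comparisons. These counts were made with the replicate block, arrays centred on their median, quantile normalization within organs and without the arrays labelled phr1 phl1. They were not made under the other settings, among them array weights, organs fitted separately, only the groups compared and left-out replicates. The 3 arrays per group limit every interval.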
